A study of Mus musculus with 4 samples.

Results

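Il3 and Csf2 encode interleukin-3 and GM-CSF, a pair of cytokines made by activated T cells, and their receptors are built from the products of Il3ra, Csf2ra, Csf2rb and Csf2rb2. These 6 genes were followed in stimulated CD4 T cells with and without the microRNA miR-146a. Members were the probe sets whose only gene symbol is one of the 6, which gave 8 probe sets, out of 18193 genes named on the array. The genes were chosen by name, but with the difference of Il3 between the genotypes already in view. That comparison of the members is therefore given as a description. The members were part of the test over all genes, and whether it called them is stated once, with nothing read from it.

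Cells came from 2D2 mice, a line whose transgenic T cell receptor recognises a peptide of myelin oligodendrocyte glycoprotein. One group was wildtype for miR-146a and the other was miR-146a-deficient; both carried the 2D2 transgene. Sorted naive CD4 T cells of both genotypes were held for 3 days on plate-bound anti-CD3 (5 µg/ml) with anti-CD28 (1 µg/ml), and RNA was hybridised to Affymetrix Mouse Genome 430 2.0 arrays, 2 per genotype. The replicates are labelled biological, without a statement that they came from separate mice or cultures, so every spread below is that between these samples and may be technical. The age and sex of the mice, and how the deficient allele was made, are not given in the sources used here. Unstimulated cells were not analysed here.

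Interleukin-3 supports early blood progenitors, basophils and mast cells. GM-CSF drives the growth and activation of granulocytes, macrophages and dendritic cells, and GM-CSF from T cells is known to be needed for autoimmune inflammation in the myelin-directed disease model for which 2D2 mice are used. Each cytokine has its own alpha chain, encoded by Il3ra or Csf2ra, which pairs with the common beta chain from Csf2rb. That beta chain is also used by interleukin-5. Mice have a further beta chain, from Csf2rb2, that serves interleukin-3 alone. The paired receptors signal through the kinase JAK2 and the transcription factor STAT5. In T cells, Il3 and Csf2 lie beside each other and are switched on by NFAT, AP-1 and NF-kB after the T cell receptor is engaged.

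The sequences below are shown because they are the microRNA that the deficient cells lack and the stretches upstream of the cytokine genes whose signals differed between the genotypes. All come from RefSeq on GRCm38.p6. The mature miR-146a-5p lies at chr11:43374435-43374456 on the minus strand, and its seed, bases 2 to 8, is in capitals. The 250 bases before the annotated starts of Il3 (chr11:54267280-54267529, minus strand) and Csf2 (chr11:54249900-54250149, minus strand) are written in the direction of transcription, with motif matches in capitals.
mmu-miR-146a-5p: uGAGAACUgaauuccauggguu
Il3 upstream: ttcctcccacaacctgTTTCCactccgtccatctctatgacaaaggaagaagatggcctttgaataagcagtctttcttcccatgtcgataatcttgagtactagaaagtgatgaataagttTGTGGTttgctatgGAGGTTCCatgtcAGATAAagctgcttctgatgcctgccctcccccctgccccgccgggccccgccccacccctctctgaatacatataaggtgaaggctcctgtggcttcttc
Csf2 upstream: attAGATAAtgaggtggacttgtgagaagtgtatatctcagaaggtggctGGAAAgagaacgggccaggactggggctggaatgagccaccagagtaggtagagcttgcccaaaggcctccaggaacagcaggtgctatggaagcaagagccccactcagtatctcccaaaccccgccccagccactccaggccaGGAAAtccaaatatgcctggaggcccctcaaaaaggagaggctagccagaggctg

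Short motifs, 5 in all, were searched on both strands: GGAAA (the NFAT core), TGANTCA (AP-1), TGTGGT (the RUNX core), AGATAA (for GATA factors) and GAGNTTCC (the core of the CK-1 element known from cytokine promoters, whose letters were set after the Il3 window had been read). The Il3 window held 1 match each to the NFAT core, the RUNX core, GATA and CK-1, the first bases of which lay 234, 128, 101 and 114 bases before the start. The Csf2 window held 2 matches to the NFAT core, 200 and 55 bases before the start, and 1 to GATA, 247 bases before it. Neither window held the AP-1 letters. No pair of matches in these windows overlapped. Over the 32851 windows of the same length in the table, 55.6% held the NFAT core, 14.1% the RUNX core, 9.99% the GATA letters, 6.75% the AP-1 letters and 4.27% the CK-1 core. A match is a description of letters, not a binding site. RefSeq lists 2 transcripts for Csf2 and the table has 1 window for it, at the outermost start, so a start further inside the gene would have another window. The start used in T cells could not be checked. Letters missing from the Csf2 window, such as CK-1, are therefore not shown to be missing from its promoter.

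Both cytokine genes gave higher signals in the deficient cells, Il3 by 2.03-fold and Csf2 by 1.44-fold. Values are the deposited linear MAS5 signals, already scaled by the authors so that arrays can be compared; a probe set is compared only with itself across arrays, since signals of different probe sets do not rank genes. The wildtype arrays read 558.7 and 506.6 for Il3, against 991.6 and 1175.1 in deficient cells. The genotypes were well apart, and the lower deficient array stood above the higher wildtype array by more than the gap within either pair. The means were 533 ± 36.8 and 1083 ± 130 (SD, n = 2), and the difference was 1.00 ± 0.14 (SE), deficient minus wildtype, on the scale log2(signal + 14.7) used for all log2 differences below.

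For Csf2 the wildtype arrays read 13157 and 11598.7, against 18169.7 and 17359.7 in deficient cells. Again the pairs did not overlap. The means were 12378 ± 1102 and 17765 ± 573 (SD, n = 2), a log2 difference of 0.52 ± 0.09 (SE). Of 12821 tested genes, 99.2% had a lower signed difference than Il3, 97.6% a lower one than Csf2rb, 96.5% than Csf2, 77.4% than Il3ra, 58.2% than Csf2rb2 and 14.2% than Csf2ra.

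The measured change was unequal between the neighbours. The log2 difference of Il3 exceeded that of Csf2 by 0.48. This is a description, since Il3 was picked with its difference in view. The probe sets of Il3 and Csf2 also read at very different signal levels, and the part of signal level in the gap was not tested. Taken array by array and set to the wildtype mean, log2 Il3 minus log2 Csf2 was -0.02 and 0.02 in wildtype and 0.32 and 0.63 in deficient cells. The 2 wildtype values lay close together (SD 0.03), and the 2 deficient values were higher and further apart (SD 0.22). Each SD rests on 2 arrays, so a difference in spread between the genotypes is not shown. Within the deficient pair Il3 was higher on replicate 2 by 0.24 on the log2 scale and Csf2 lower there by a difference of -0.07.

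Among the alpha chains, differences were about as large as their standard errors or smaller. Il3ra, the alpha chain for interleukin-3, read 148.2 and 159.1 in wildtype and 173.3 and 162.5 in deficient arrays. The deficient arrays were both higher, by a narrow margin of 1.09-fold between means (log2 difference 0.12 ± 0.20, SE). Csf2ra, the alpha chain for GM-CSF, has 2 probe sets past the filter on dim signals. The brighter read 171.1 and 264.5 in wildtype against 176.6 and 177.4 in deficient arrays, a log2 difference of -0.25 ± 0.23 (SE). Here 1 array, wildtype replicate 2, stood above the other 3, and without it the difference was 0.05. The dimmer Csf2ra probe set read 85.44, 62.48, 41.92 and 98.2 in the same array order, with the deficient arrays on either side of the wildtype pair.

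Among the beta chains, the common one was higher in the deficient cells and the interleukin-3-specific one was not separated. Csf2rb read 173.5 and 210.7 in wildtype and 350.2 and 267.1 in deficient arrays on its brighter probe set. The pairs did not overlap; the means were 192 ± 26.3 and 309 ± 58.8 (SD, n = 2), 1.61-fold apart, with a log2 difference of 0.64 ± 0.20 (SE). Its dimmer probe set lay below the filter, at 9.398 and 28.84 against 27.19 and 46.04, and its genotypes overlapped. Csf2rb2 read 60.99 and 62.34 in wildtype and 70.49 and 56.03 in deficient arrays, where the deficient arrays lay on either side of the wildtype pair (log2 difference 0.02 ± 0.31, SE; -0.11 without deficient replicate 1). A probe set named for both beta chains was not a member; it read 7.255, 6.689, 7.141 and 17.82, below the filter.

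**Figure D1:**
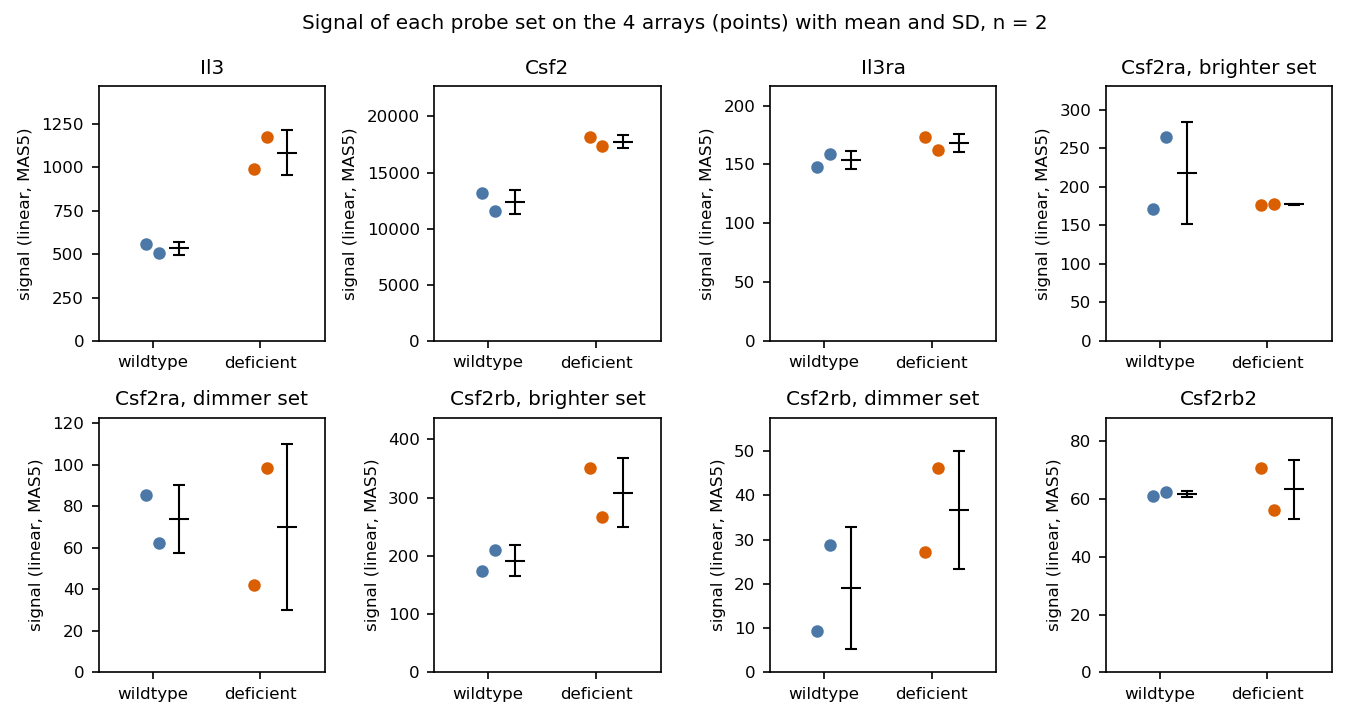
Linear signal of each of the 8 probe sets (vertical axes, each from 0) in wildtype and miR-146a-deficient cells, with 1 point per array and the mean and SD of the 2 arrays beside them. Il3, Csf2, Il3ra and the brighter set of Csf2rb have both deficient points above both wildtype points; in Csf2ra 1 wildtype array stands high.

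All 6 genes passed the filter through their brightest probe set, and 7 of the 8 probe sets passed. Genes were tested by limma over all 12821 tested genes, and a gene is called where its Benjamini-Hochberg adjusted p is below 0.05; at an unadjusted p below 0.05 stood 675 of them, or 5.26%, the share beside which the unadjusted counts of the lists below are to be read. Of the 6 members 1, Il3, was called and 5 were not, where 0.179% of all tested genes were called. Il3 was not called in 5 of 13 alternatives: without deficient replicate 2, with the mean of probe sets, with the replicate block, without the filter and without the intensity trend. Csf2 was called in 2 of 13, without wildtype replicate 1 (0.61) and without wildtype replicate 2 (0.43), where the spread came from the deficient pair alone. The other members were called in none of these alternatives. In 4 of 6, both deficient arrays lay above both wildtype arrays, as in 15.9% of all tested genes. Since this comparison was in view when the genes were picked, nothing is read from these counts. The median log2 difference was 0.32 over the members and -0.01 over all tested genes.

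Interleukin-5 completes the family that uses the common beta chain, and its signals went the other way from Il3 and Csf2. Il5 read 5237 and 6981 in wildtype and 4054 and 3580 in deficient arrays, a log2 difference of -0.66 ± 0.14 (SE) that limma did not call (adjusted p = 0.226). The deficient arrays were both lower. Without wildtype replicate 1 limma called Il5 (-0.87), where 1 wildtype array was left and the spread came from the deficient pair alone. Il5ra, its alpha chain, known from eosinophils and some B cells, read 58.14 and 63.69 against 109.6 and 120.9, a log2 difference of 0.78 ± 0.27 (SE) that was not called (adjusted p = 0.740).

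Among other T cell cytokines, 2 of 17 tested genes were called, both higher, where 0.179% of all tested genes were called. An unadjusted p below 0.05 was found for 7 of the 17. Differences were above 0 in 10 and below in 7, and the list's median log2 difference was 0.02. Both deficient arrays were higher in 4 and lower in 4. Ifng, the interferon-gamma gene, rose by 0.73 ± 0.09 (adjusted p = 0.0195, limma), from 6570 and 6772 to 11430 and 10700. Il2, whose product expands T cells, rose by 0.98 ± 0.12 (adjusted p = 0.0208, limma), from 2046 and 1692 to 3494 and 3906. After Il5 the next smallest p was that of Il4, with a log2 difference of -0.48 ± 0.14 that was not called (adjusted p = 0.561, limma). The count of 2 went to 0 with the replicate number as a block, without a filter on dim genes and without the intensity trend, to 1 without deficient replicate 1 and to 5 without wildtype replicate 1, when Il4, Il5 and Il9 were called lower.

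Il3 and Csf2 are next to each other in gene order on chromosome 11, with 0 protein-coding genes between them in RefSeq, and Mir146 lies on the same chromosome with 77 tested genes between it and Csf2. Of the 40 protein-coding neighbours, 20 on each side of the pair, 32 were tested. Limma called 0 of the 32, and 8 had an unadjusted p below 0.05; 14 had a difference above 0 and 18 below, with a median log2 difference of -0.06. The smallest p was that of Atox1, a copper chaperone gene, with a log2 difference of 0.72 ± 0.11 (adjusted p = 0.0673, limma). Atox1 was called without wildtype replicate 1 (0.80), without wildtype replicate 2 (0.65), without deficient replicate 2 (0.84) and with median centring (0.81), and Il4 and Il5 without wildtype replicate 1.

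The genes directly beside the pair had signals that differed in the same direction as Il3 and Csf2; the 4 adjacent genes are singled out here after their values were seen. P4ha2, which encodes a collagen prolyl hydroxylase subunit and adjoins Csf2, read 204.9 and 196.5 in wildtype and 388.8 and 291 in deficient arrays (log2 difference 0.71 ± 0.19, SE; not called, adjusted p = 0.497). Acsl6, a fatty acyl-CoA synthetase gene that adjoins Il3, read 273.7 and 193.6 against 314.2 and 364.6 (log2 difference 0.53 ± 0.20, SE; not called, adjusted p = 0.890); its other probe set lay below the filter. For both, the deficient arrays were above the wildtype arrays.

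A few genes further along, the type 2 cytokine genes had the opposite sign. Il5, Rad50, Il13 and Il4, 7 to 10 genes from Csf2, had log2 differences of -0.66, -0.29, -0.23 and -0.48. In each, both deficient arrays lay below both wildtype arrays, and none was called. Of the 32 tested neighbours, 9 had both deficient arrays lower and 5 had both higher. Over all tested genes 15.9% had both higher. The share with both lower was not counted, so nothing is read from these runs of neighbours. Rad50, a DNA repair gene, holds regulatory sequence of the type 2 cytokine genes. Irf1, an interferon-response transcription factor gene between Il5 and Csf2, had overlapping arrays and a log2 difference of 0.13 ± 0.11 (SE).

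**Figure D2:**
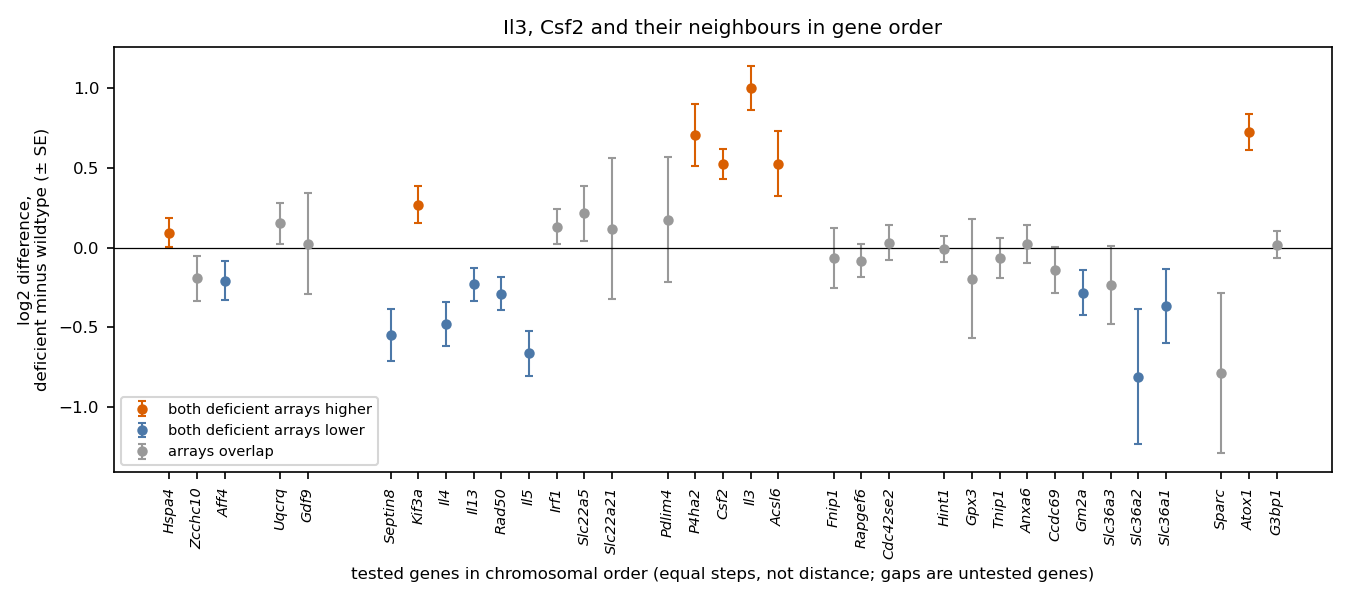
Log2 difference, deficient minus wildtype, with its SE (vertical axis) for Il3, Csf2 and their tested neighbours in chromosomal order, in equal steps. P4ha2, Csf2, Il3 and Acsl6 stand side by side above 0, and Il4, Il13, Rad50 and Il5 below 0; colour marks whether the arrays of the genotypes overlap.

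The signalling chain below the receptors showed no called gene. Of 17 tested genes of beta common receptor signalling, limma called 0, 2 had an unadjusted p below 0.05, 5 had a difference above 0 and 12 below, and the median log2 difference was -0.09. Jak2, the kinase bound to the common beta chain, read 2733 and 3478 in wildtype and 2498 and 2410 in deficient arrays (log2 difference -0.33 ± 0.13, SE; adjusted p = 0.878). Pik3cd, a PI3-kinase catalytic subunit, and Sos1, an exchange factor for RAS, had log2 differences of -0.35 and -0.29. Without wildtype replicate 2, Pik3cd was called (-0.55), where the spread came from the deficient pair alone. Grb2, an adaptor, had 0.19, the largest above 0. Stat5a had overlapping arrays and -0.14.

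Genes that STAT5 is known to induce were likewise not called. Of 14 tested, 0 were called by limma and 0 had an unadjusted p below 0.05, with 7 differences above 0, 7 below and a median of -0.01. Cish, a feedback inhibitor of cytokine receptors, read 7652 and 8477 in wildtype and 7173 and 7154 in deficient arrays, a log2 difference of -0.17 ± 0.09 (SE). The interleukin-2 receptor gene Il2ra, the feedback gene Socs2 and the cytokine gene Osm had log2 differences of -0.28, -0.17 and 0.16. Interleukin-2 and other cytokines that act through STAT5 also induce these genes.

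Of 25 tested genes for transcription factors that act on Il3 or Csf2, limma called 0 and 4 had an unadjusted p below 0.05; 9 lay above 0 and 16 below, with a median of -0.04. Jun, an AP-1 subunit, read 479.9 and 611.9 in wildtype and 728 and 906 in deficient arrays (log2 difference 0.57 ± 0.17, SE; adjusted p = 0.561). Gata3, the type 2 master regulator gene, had the smallest p of the list, at 5198 and 5053 against 3995 and 4070 (log2 difference -0.34 ± 0.09, SE; adjusted p = 0.416). The AP-1 subunit gene Jund had -0.21 and Runx1, whose product binds RUNX motifs, -0.48; in both the deficient arrays were lower. Bhlhe40, a factor needed for GM-CSF in T cells, read 7835 and 10620 against 9226 and 11600, with overlapping arrays.

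Cytokine messages are also controlled by RNA-binding proteins and RNases, some of which speed their decay while others stabilise them or hold back translation. Of 15 tested genes on this list, limma called 0 and 0 had an unadjusted p below 0.05; 7 lay above 0 and 8 below, with a median of -0.01. The smallest p were those of Zfp36l2, an AU-rich element binding protein gene, at -0.23 ± 0.15 (SE), and Ybx1, an RNA-binding protein gene, at 0.10 ± 0.08 (SE). Zc3h12d and Rc3h2, of the Regnase and Roquin families, had 0.21 and 0.15. Without wildtype replicate 1, Zfp36l2 was called (-0.49), where the spread came from the deficient pair alone.

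**Figure D3:**
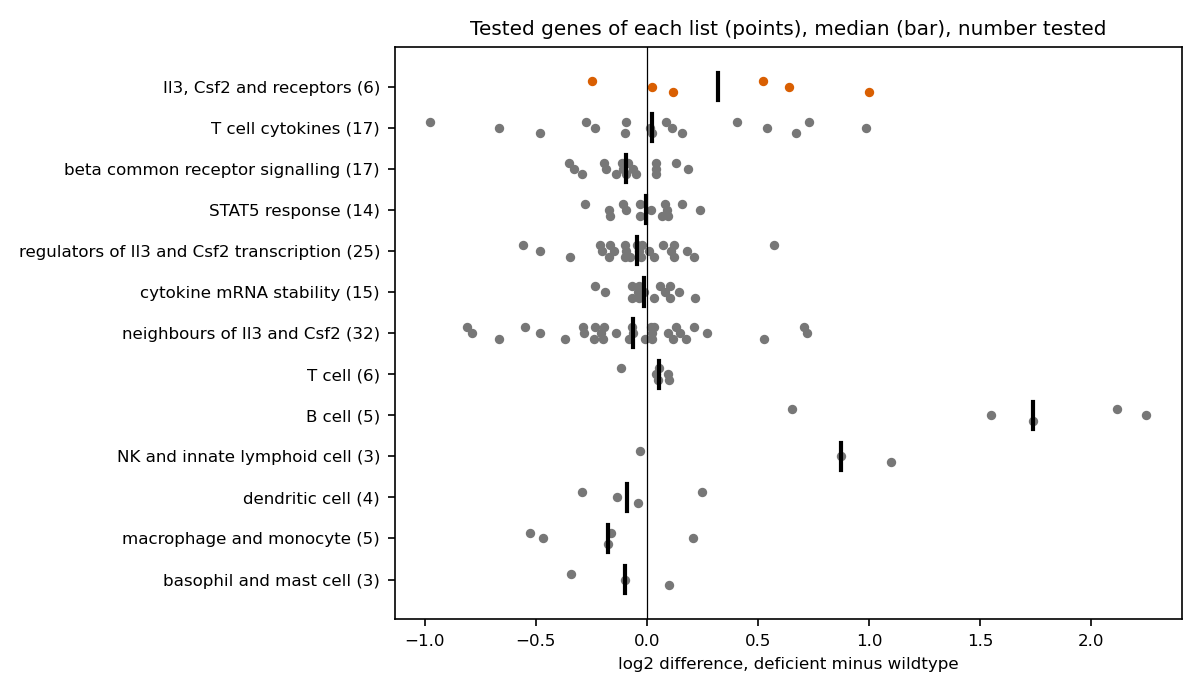
Log2 difference, deficient minus wildtype (horizontal axis), of the tested genes of each list, with 1 point per gene, a bar at the median and the number tested in brackets. The signalling, STAT5, regulator and mRNA stability lists are centred between -0.09 and -0.01 (between -0.01 and 0.08 with median centring of the arrays), while the B cell markers lie to the right with a median of 1.74.

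Markers of other cells are given because the receptors are at home on them. T cell markers were present in all arrays: 6 of the 8 listed were measured, all 6 passed the filter, none was called by limma (0 with an unadjusted p below 0.05), and their summed signal was 30631 and 34173 in wildtype and 31797 and 35670 in deficient arrays. B cell markers moved with the genotype. Limma called 3, Ms4a1, Blnk and Cd22, all higher, where 0.179% of all tested genes were called, and 4 had an unadjusted p below 0.05. Of 7 B cell markers listed, 6 were measured and 5 tested. Their summed signal over the 6 was 855 and 1240 in wildtype and 2991 and 4034 in deficient arrays. Pax5, below the filter, went the other way, at 68.91 and 23.94 in wildtype against 11.29 and 21.92 in deficient arrays. Ms4a1, which encodes CD20, read 166.9 and 228.1 against 838.1 and 1150. The part of B cells in the higher Csf2rb and Il5ra signals, or in those of Il3 and Csf2, was not tested. In bulk RNA, more cells of a type and more RNA per cell cannot be told apart. The 3 B cell calls became 0 without a filter on dim genes and without the intensity trend, and 2 with the mean of probe sets, where Cd22 was lost. With the replicate block Cd22 was lost and Cd79b called. With median centring Cd79b was added, which gave 4. Cd22 was also lost without deficient replicate 2, and Cd79b was added without any 1 of the other arrays. In those fits the spread came from 1 pair alone.

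The myeloid cells that depend on interleukin-3 and GM-CSF left little signal. Of the 7 basophil and mast cell markers measured, 3 passed the filter; Mcpt8, Fcer1a, Ms4a2 and Hdc did not, and the list summed to 293 and 261 in wildtype and 265 and 179 in deficient arrays. None of 5 measured neutrophil markers passed the filter; they summed to 131 and 54 against 60 and 71. Of 7 macrophage and monocyte markers 5 passed, with sums of 570 and 569 against 469 and 534, and Cd14 and Itgam did not. Of 8 dendritic cell markers 4 passed, among them Ccr7 and Batf3, which T cells also express, while Itgax, Flt3, Xcr1 and Siglech did not; with Ccr7 and Batf3 included the list summed to 8404 and 9712 against 9379 and 9083. Limma called 0 members of these lists, and 0 had an unadjusted p below 0.05.

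Of the NK and innate lymphoid markers, 4 were measured and 3 tested, with 0 called by limma and 2 at an unadjusted p below 0.05. They summed to 581 and 673 in wildtype and 901 and 1313 in deficient arrays. Klrk1, the NKG2D gene, and Eomes, a T-box factor gene, had log2 differences of 1.10 and 0.87. Rora, also tested, had -0.03, with overlapping arrays. Ncr1, below the filter, read 7.229 and 40.24 in wildtype against 10.06 and 39.98 in deficient arrays. Klrk1 was called without wildtype replicate 1 and with median centring, and Eomes without wildtype replicate 2. Cd8b1 read 707.2 and 766.8 against 643.9 and 888.5, and Cd8a 49.64 and 48.12 against 79.4 and 88.9, both not called. Such cells can also make interleukin-3 and GM-CSF, and their part was not tested.

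A measure of RNA quality, the transferrin receptor control, also moved with genotype. The ratio of 3′ to 5′ signal was 2.57 ± 0.24 in wildtype and 2.07 ± 0.22 in deficient arrays for the transferrin receptor control, 0.793 ± 0.021 and 0.762 ± 0.023 for Gapdh, and 1.24 ± 0.10 and 1.20 ± 0.08 for beta-actin (SD, n = 2). The transferrin receptor ratios did not overlap between genotypes. The Gapdh ratios all but met, at 0.7783 in the lower wildtype array and 0.7781 in the higher deficient array, and those of beta-actin overlapped. The part of RNA quality in the member differences was not tested. Of the probe sets, 0 are named for Mir146, so the absence of miR-146a was not checked on these arrays.

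The genes whose profiles over the 4 arrays were nearest to Il3 included another T cell cytokine. Each gene was centred on its own mean log2 signal, and the root mean square distance over the 4 arrays was taken, as a description. Nearest to Il3 were Evx2 (0.034), Il2 (0.056), Smagp (0.061), Ogfrl1 (0.069) and Pla2g4f (0.073). Of these Evx2 and Pla2g4f are dim, with wildtype signals of 27.88 and 23.95 for Evx2 and 23.57 and 19.36 for Pla2g4f. These lie below the filter, a signal of 29.9. Both genes passed it only through their deficient arrays, at 56.84 and 75.56 for Evx2 and 44.67 and 57.85 for Pla2g4f. Their place on the list therefore depends on the group where they are high. Nearest to Csf2 were Slc39a9 (0.031), Trim71 (0.036), Ccdc40 (0.039), Tubb6 (0.049) and Steap3 (0.058). Csf2 itself was 0.263 from Il3, with 153 other genes closer to Il3, and 3585 other genes were closer to Csf2 than Il3 was. A distance over 4 arrays mostly orders genes by the size of their genotype difference.

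**Figure D4:**
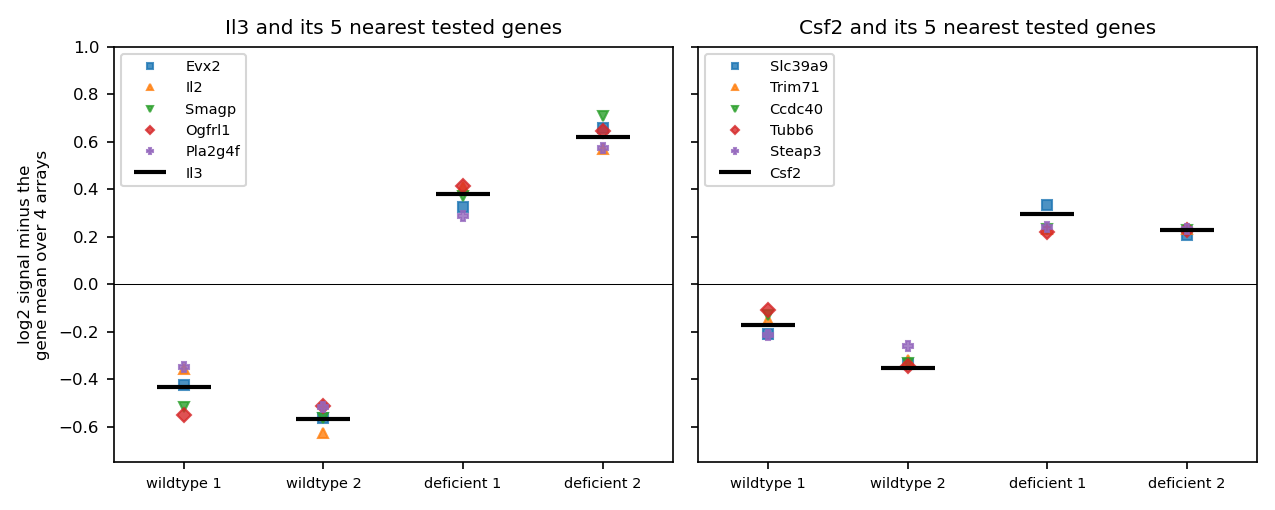
Log2 signal of each array minus the gene's mean over the 4 arrays (vertical axis) for Il3 (left) and Csf2 (right), drawn as bars, and for the 5 tested genes nearest to each, drawn as symbols. The symbols follow the bars because the genes were picked for nearness on these 4 arrays, Il2 among them. The Il3 bars span a wider range than the Csf2 bars.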

How the data were processed

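The values deposited by the authors are linear intensities, 1 MAS5 signal for each probe set on each array; MAS5 and Transcriptome Analysis Console are named in the submitters' processing notes, without versions. Each array's 2% trimmed mean is 500, so no further scaling was applied. Scanner files and detection calls were not used, and no source used here gives a batch. Of 45101 probe sets 64 controls were left out; 34945 have 1 gene symbol in the platform annotation and 932 have several.

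Signals were taken as log2(signal + 14.7), the 25th percentile of all values, which understates the fold of dim genes. For each gene the probe set with the highest mean was used, and genes at or above the 40th percentile (5.48, a signal of 29.9) were tested. Limma 3.58.1 in R 4.3.3 (lmFit, eBayes with an intensity trend; two-sided) was fitted to 4 arrays and 12821 genes, with Benjamini-Hochberg adjustment over all genes and a threshold of 0.05; the script was checked on simulated data. Arrays have no depth of reads: their number limits the precision.

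The members and gene lists were chosen with earlier results of these data known. Named were all probe sets of the members, the called genes and up to 4 with the smallest p of each list, the 5 nearest profiles and defining markers; other genes, such as those adjoining the pair, were named after their values were seen. RefSeq (GRCm38.p6) gave sequences and gene order; 5 of the 6 members have an upstream window there. Alternatives covered pseudocount, scaling, probe sets, filter, trend, the replicate block and each array left out. Figures used matplotlib 3.10.9.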

Additional observations from a re-analysis of the deposited data

How the results depend on the processing

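Il3, Csf2, Il3ra and Csf2rb kept a difference above 0 in all 13 alternatives, most of which could not change that sign. Both deficient arrays lay above both wildtype arrays, so no array left out and no pseudocount could reverse it. The replicate block, filter, trend and every-probe-set fits reuse the same signals. Only the rescalings and, for Csf2rb, the mean of probe sets could have changed it. Csf2ra turned to 0.046 without wildtype replicate 2 (range over the arrays left out -0.54 to 0.046), and Csf2rb2 to -0.11 without deficient replicate 1 (-0.11 to 0.16). Il3ra was 0.20 with median centring, which shifted the median of all tested genes by 0.08 and turned the medians of the regulator, mRNA stability, STAT5 and neighbour lists to 0.04, 0.07, 0.08 and 0.02. The count of called genes, 23 over all 4 arrays, was 51 with median centring, 14 with the mean of probe sets (11921 genes tested), 2 without a filter (18193 genes tested), 0 without the intensity trend (769 at an unadjusted p below 0.05) and 45 over every probe set (27022 tested), the last chosen after the data were seen. Leaving out 1 array gave 27 to 99 called genes, with the spread taken from 1 pair. Replicate numbers are shared by the genotypes, but no label says that they pair samples, and deviations of same-numbered arrays correlated at 0.05 across genes; with the replicate block 14 genes were called. Of 143 list medians recomputed, 117 moved by less than the spread between replicates, and of 143 list counts 127 stayed within 1.5 times. The 117 include the medians with the replicate block, without the filter and without the intensity trend. Those equal the main medians by construction and test nothing. With 2 arrays a genotype, small differences of dim receptor genes were not detectable.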
